A study of Mus musculus with 6 samples.

Results

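Sema4d, Swap70 and Fas are the genes over the 3 widest regions of trimethylated lysine 4 of histone H3 (H3K4me3) in germinal center (GC) B cells of the mouse. They were picked by that width. The H3K4me3 peaks of 3 libraries were joined wherever they touched or overlapped, which gave 64441 merged regions, and the regions over Sema4d, Swap70 and Fas ranked 1, 2 and 3 by length. The 3 genes stand among 11025 protein-coding genes with a transcription start site (TSS) in any merged region and 21864 annotated protein-coding genes. Merged width, the number of pieces and every other H3K4me3 measure of these domains therefore describe the choice and were not tested, whereas monomethylation of the same lysine (H3K4me1) played no part in it. All positions are on mm10 (GRCm38), counted from 1.

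H3K4me3 is laid down around the start sites of active genes, usually over a few nucleosomes, and unusually broad stretches of it are known at genes tied to the identity of a cell. H3K4me1 is the more typical mark of enhancers and of the flanks of active promoters, and the methyltransferase KMT2D is among the enzymes that write it. Sema4d encodes semaphorin 4D (CD100), a membrane protein of lymphocytes that binds plexin-B receptors and CD72. Swap70 encodes SWAP-70, a B cell protein that binds phosphoinositides and acts on Rac and the actin skeleton. Fas encodes the death receptor CD95, which triggers apoptosis on binding Fas ligand and is a surface marker of GC B cells.

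The libraries were made by Mint-ChIP, a multiplexed chromatin immunoprecipitation of nuclease-cut native chromatin for small cell numbers, from wild-type (WT) mouse spleens taken 8 days after injection of sheep red blood cells, with 50000 sorted cells per library. There were 2 groups of 3 libraries, 1 with the H3K4me3 antibody ab8580 and 1 with the H3K4me1 antibody ab8895, and no mutant, untreated or input library was used. The labels call the cells centrocytes, the light zone part of the GC, whereas the methods of the study speak of GC B cells, and the labels' protocol field mentions an antibody to H3K27ac where the titles and antibody fields name the methylation marks. In the study GC B cells were recognized in flow cytometry partly by surface FAS, and whether each library came from a separate mouse is not given in the sources used here, so the spread between libraries may be technical.

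The H3K4me3 lists held 41936 to 46707 peaks and the H3K4me1 lists 24136, 13923 and 11922 peaks in replicates 1, 2 and 3. Peaks were called per library, as broad peaks for H3K4me3 and as narrow peaks with a summit for H3K4me1, so a contrast between the marks is also a contrast between calling modes. The read depth is unknown. At H3K4me1 summits the median stack was 6 fragments in each library. B cell identity was checked on promoter marks: 10 of 10 GC B cell genes, among them Bcl6 and Pax5, had H3K4me3 within 5 kb of a TSS in all 3 libraries, against 56.1% of protein-coding genes. Of the markers of other cells, 2 of 8 T cell genes (Cd3d and Lck) had it in all 3. So did 2 of 6 myeloid genes (Cd14 and Itgam) and 1 of 6 genes of other tissues (Gfap). It was seen in 0 libraries at 4 of 8 T cell genes, 2 of 6 myeloid genes and 4 of 6 genes of other tissues. The remaining markers had it in 1 or 2 libraries. Lck lay in a merged region of 12.9 kb with H3K4me1 in 3 libraries, wider than the 9.78 kb at Bcl6.

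The start sites under the domains are shown because the domains differ in the kind of promoter they lie on. RefSeq start regions from GRCm38.p6 were found for all 3 genes, each of 300 bases with 250 before the start and 50 from it on, read in the direction of transcription. The capitals mark CG dinucleotides.
Swap70 start, chr7:110221453-110221752, plus strand: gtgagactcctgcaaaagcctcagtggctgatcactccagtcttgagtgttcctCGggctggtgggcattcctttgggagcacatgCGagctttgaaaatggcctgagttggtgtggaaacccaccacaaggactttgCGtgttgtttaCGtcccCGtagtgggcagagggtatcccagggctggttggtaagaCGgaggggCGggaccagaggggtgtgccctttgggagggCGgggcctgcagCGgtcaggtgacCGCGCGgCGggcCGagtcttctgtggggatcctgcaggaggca
Fas start, chr19:34290409-34290708, plus strand: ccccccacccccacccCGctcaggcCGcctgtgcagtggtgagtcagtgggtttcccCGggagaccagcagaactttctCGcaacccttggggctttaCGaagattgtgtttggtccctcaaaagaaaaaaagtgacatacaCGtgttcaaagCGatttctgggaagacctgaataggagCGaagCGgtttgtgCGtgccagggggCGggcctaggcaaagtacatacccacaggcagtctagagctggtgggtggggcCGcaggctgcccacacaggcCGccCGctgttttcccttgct
Sema4d internal start at 51756683, chr13:51756634-51756933, minus strand: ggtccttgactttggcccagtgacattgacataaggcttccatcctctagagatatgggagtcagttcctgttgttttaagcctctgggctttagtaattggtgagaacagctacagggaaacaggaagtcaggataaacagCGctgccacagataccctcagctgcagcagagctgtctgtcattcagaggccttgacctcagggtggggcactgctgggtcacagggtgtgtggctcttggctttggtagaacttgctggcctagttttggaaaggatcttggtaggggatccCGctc
Sema4d internal start at 51748810, chr13:51748761-51749060, minus strand: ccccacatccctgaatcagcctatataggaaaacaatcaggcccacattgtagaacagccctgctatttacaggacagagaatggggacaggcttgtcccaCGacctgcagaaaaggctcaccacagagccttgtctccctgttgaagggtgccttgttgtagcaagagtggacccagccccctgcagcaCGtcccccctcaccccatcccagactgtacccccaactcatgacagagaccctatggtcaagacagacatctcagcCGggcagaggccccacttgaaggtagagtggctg
Sema4d internal start at 51739446, chr13:51739397-51739696, minus strand: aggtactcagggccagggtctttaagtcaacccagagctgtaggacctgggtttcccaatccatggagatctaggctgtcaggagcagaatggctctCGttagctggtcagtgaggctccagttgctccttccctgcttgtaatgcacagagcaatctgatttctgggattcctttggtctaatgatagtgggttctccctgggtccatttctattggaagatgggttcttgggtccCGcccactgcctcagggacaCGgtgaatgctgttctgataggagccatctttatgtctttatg
The Swap70 and Fas starts each held 14 CG dinucleotides, more than 63.7% of the 32851 start regions in the table. The 3 internal Sema4d starts held 2, 3 and 3, and only 14.1% to 23.3% of start regions held fewer. The median start region held 7.

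The contrast held over 1 kb centred on each start. CG dinucleotides numbered 68 per kb around the Swap70 start, 33 around the Fas start and 65 around the upstream Sema4d start, which lies outside the Sema4d domain. Around the 3 internal Sema4d starts the number was 10 to 18 per kb. Over whole domains it fell to 11.7 per kb at Swap70, 8.11 at Fas and 14.6 at Sema4d, close to the 10.6, 7.70 and 14.5 per kb of the windows of 50 kb either side of the genes. Over their whole length all 3 domains thus held fewer CG per kb than the 1 kb around the Swap70, Fas and upstream Sema4d starts.

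The Sema4d domain spanned chr13:51731754-51759013, a length of 27.3 kb, and lay entirely inside the gene (chr13:51685529-51793747, minus strand). Its near edge was 34.7 kb downstream of the start of the longest coding transcript, Sema4d-201. In that transcript the domain was wholly intronic and took up 72.3% of intron 2. It held 8 of the 14 distinct GENCODE start sites of the gene but only 1 of the 3 starts of coding transcripts in the basic GENCODE set, that of Sema4d-202 at 51734763, together with the 3 internal RefSeq starts shown above. A further coding transcript, Sema4d-204, is outside the basic set and starts at 51704971, also outside the domain. The widest H3K4me3 region of these cells was thus an intragenic one and not the region at the upstream promoter.

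In replicate 1 the Sema4d domain was a single peak of 27.3 kb, the widest of that library. In replicate 2 it was broken into 3 peaks of 7.38, 4.63 and 11.3 kb, and in replicate 3 into 3 peaks of 7.98, 5.66 and 11.2 kb. The widest piece ranked 27 in replicate 2 and 29 in replicate 3. The breaks fell at the same places in both: the gap at chr13:51739881-51740636 of replicate 3 (756 bp) lay inside the gap at chr13:51739407-51741042 of replicate 2 (1636 bp), and the gap at chr13:51746297-51747388 of replicate 3 (1092 bp) inside the gap at chr13:51745676-51747633 of replicate 2 (1958 bp). Only replicate 1 bridged the 756 and 1092 bp. The internal start at 51739446 fell just inside a gap and was covered in 2 of 3 libraries, whereas the starts at 51734763, 51748810 and 51756683 were covered in 3 of 3.

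**Figure D1:**
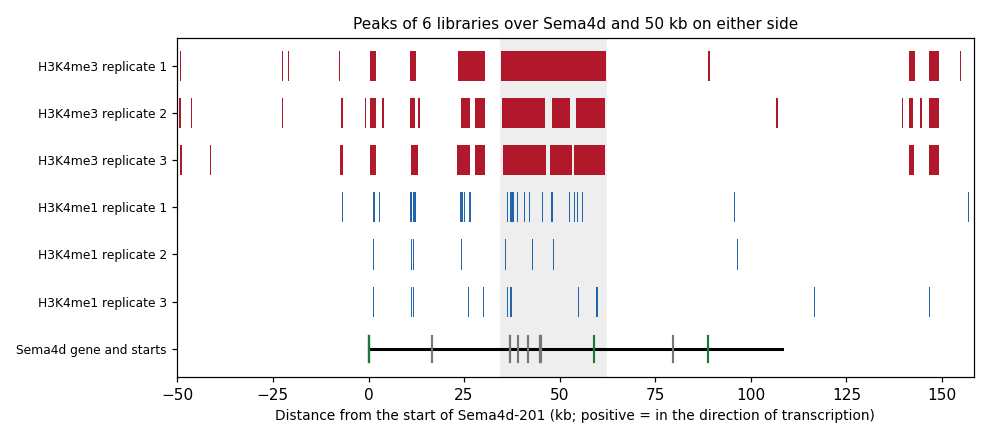
Peaks of each library over Sema4d and 50 kb on either side, by distance in kb from the start of Sema4d-201 along the direction of transcription. Red boxes are H3K4me3 peaks, blue boxes H3K4me1 peaks, grey shading the merged domain, and ticks on the gene line GENCODE starts (green for coding transcripts, grey for others). The domain lies 34.7 to 62.0 kb into the gene, and the narrow H3K4me3 peak near 0 is the upstream promoter.

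The upstream Sema4d promoter carried a narrow H3K4me3 peak of its own with a higher mean fold enrichment. It was 1.52, 1.41 and 1.45 kb wide in replicates 1, 2 and 3, and its fold enrichment over local background was 10.8, 9.56 and 9.98, against a width-weighted mean of 5.46, 5.17 and 5.28 in the domain. In a broad list these values are averages over a peak, so local height cannot be compared within the domain or between it and the promoter. All 3 promoter peaks ended within a few bases of each other, at 51793315, 51793319 and 51793317, downstream of the start at 51793747, so the start itself was covered in 0 of 3 libraries. Replicate 2 had a further peak on the other side of the start, at chr13:51794341-51794552. Between promoter and domain the libraries also shared H3K4me3 over the stretches chr13:51781337-51782784 and chr13:51763328-51770218 of replicate 1, and the latter, the piece nearest the domain, measured 6.89 kb in replicate 1 and was split in replicates 2 and 3.

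H3K4me1 in the Sema4d domain was uneven between libraries. Replicate 1 had 12 peaks there, replicate 2 had 3 and replicate 3 had 4, covering 13.1%, 2.47% and 4.68% of the domain. Replicate 1 also had the longest list, and per 10000 peaks of a library the counts were 4.97, 2.15 and 3.36, so the order of the libraries was kept. Joined over the libraries these peaks made 17 regions, of which 2 were found in 2 libraries and 0 in all 3, and both shared regions joined replicates 1 and 3. The stronger of the pair, chr13:51757173-51757486, had fold enrichments of 4.81 and 7.31 with 6 and 9 fragments at the summit, and lay near the upstream edge of the domain.

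Outside the domain, by contrast, 3 stretches of the Sema4d window lay under H3K4me1 peaks of all 3 libraries. The stretch at chr13:51792413-51792634 sat in the promoter H3K4me3 peak, 1.22 kb downstream of the start, with fold enrichments of 5.61, 7.50 and 5.85 and summits of 7, 9 and 7 fragments. The stretches at chr13:51781774-51782060 and chr13:51782391-51782576 lay 11.8 and 11.3 kb downstream of the start, also under H3K4me3 in all 3 libraries. In the window the H3K4me1 peaks seen in all libraries were therefore those at the narrow H3K4me3 peaks and not those of the wide domain.

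The Swap70 domain spanned chr7:110221070-110247027, 26.0 kb, and began at the promoter. It reached 0.641 kb upstream and 25.3 kb downstream of the start of the longest coding transcript (gene at chr7:110221711-110283506, plus strand), covering exons 1 and 2, all of intron 1 (21.5 kb) and 28.7% of intron 2. All 4 GENCODE starts of the gene lay in it and were covered in 3 of 3 libraries. The domain was thus asymmetric, with nearly its whole length in the direction of transcription.

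No single library showed the Swap70 domain unbroken. It consisted of 2 peaks in replicate 1 (9.56 and 14.6 kb), 4 in replicate 2 (3.32, 4.50, 9.03 and 5.49 kb) and 5 in replicate 3, the widest of these 9.23 kb, and the widest piece ranked 20, 85 and 68 in the 3 lists. The 8 gaps measured 725 to 1808 bp. A break in intron 1 occurred in every library, at chr7:110230634-110232441 in replicate 1, chr7:110229880-110230604 in replicate 2 and chr7:110230474-110231411 in replicate 3. There the merged region rests on 1 library at a time, since 131 bp were covered only in replicate 1 and the 778 bp of chr7:110230634-110231411 only in replicate 2. Further stretches of 305 bp and 327 bp rested on replicate 2 and replicate 1 alone. The piece over the start had the highest fold enrichment in each library, 6.09, 7.76 and 6.46, against 5.28 in the other piece of replicate 1, 4.83 to 5.27 in those of replicate 2 and 3.24 to 5.61 in those of replicate 3.

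**Figure D2:**
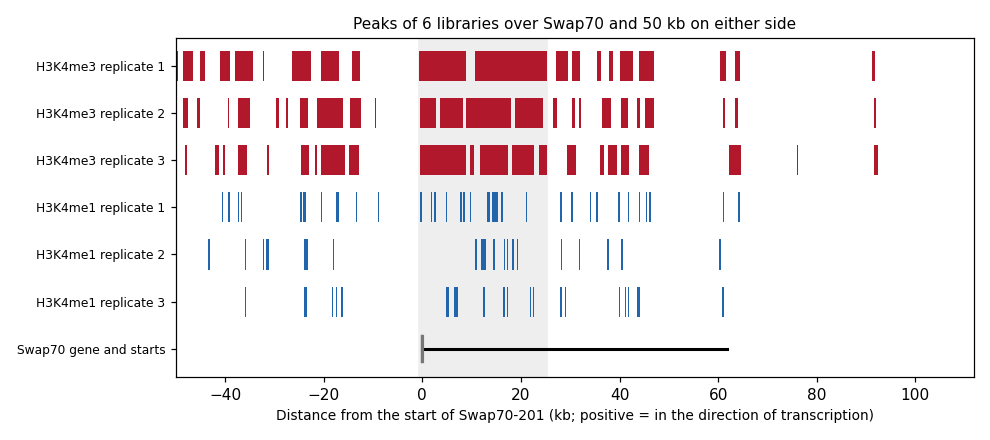
Peaks of each library over Swap70 and 50 kb on either side, by distance in kb from the start of the longest coding Swap70 transcript, drawn as in the map of Sema4d. H3K4me3 fills the first 25.3 kb of the gene in 2 to 5 pieces per library, and smaller H3K4me3 peaks lie on both sides.

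Swap70 also had the most H3K4me3 beyond its domain. Of the bases under H3K4me3 in its window, 42.7%, 48.7% and 47.0% lay in the domain in replicates 1, 2 and 3, compared with 63.6%, 60.8% and 62.9% at Sema4d and 83.6%, 88.1% and 81.4% at Fas. Upstream of the gene a cluster of peaks included pieces of 3.76, 5.15 and 4.84 kb over chr7:110201098-110204858, chr7:110200442-110205587 and chr7:110201098-110205939. No H3K4me3 peak of more than 256 bp lay between that cluster, which ended at 110209167, 110209200 and 110208866, and the domain.

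The libraries had 11, 7 and 7 H3K4me1 peaks in the Swap70 domain, covering 17.6%, 10.9% and 10.6% of it. The mean of 13.0% was the highest of the 3 genes, but this order was not stable, since Swap70 had 6.39% against 8.56% at Fas when each list was limited to its 10000 best peaks, and 10.7% against 11.9% without H3K4me3 replicate 1. Of 19 joined regions, 4 were found in 2 libraries and 1 in 3. In the latter, chr7:110237621-110238521, the peaks formed a chain, and 0 bases were common to all 3 libraries. The strongest shared region was chr7:110235848-110236991, with fold enrichments of 7.02 in replicate 1 and 8.998 in replicate 2, summits of 9 and 11 fragments, and summit positions of 110236112 and 110236110. Replicate 3 had no peak there. At the start itself replicate 1 had an H3K4me1 summit 269 bp away, whereas the nearest summits in replicates 2 and 3 were 10775 and 5321 bp away.

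Beyond the domain, 2 stretches of the Swap70 window lay under H3K4me1 peaks of all 3 libraries. At chr7:110249808-110250043, just past the downstream edge, fold enrichment was 5.61, 5.25 and 9.50 with 7, 6 and 12 fragments at the summit, and H3K4me3 covered the stretch in 1 of 3 libraries. At chr7:110197809-110198129, centred at -23.7 kb from the start, fold enrichment was 4.12, 4.80 and 5.85 and H3K4me3 was present in 3 of 3. Of the common stretches in the 3 windows, the former was the only one not under H3K4me3 in all 3 libraries.

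The Fas domain spanned chr19:34286310-34308752, 22.4 kb, and was the only one of the 3 with a long arm upstream of the promoter. It extended 4.36 kb upstream and 18.1 kb downstream of the start of the longest coding transcript (gene at chr19:34290666-34327772, plus strand) and covered exons 1 and 2, all of intron 1 (16.4 kb) and 18.7% of intron 2. All 4 GENCODE starts of Fas lay in it and were covered in 3 of 3 libraries. Replicate 1 showed 2 peaks of 9.91 and 11.0 kb, replicate 2 showed 3 of 9.08, 4.96 and 5.78 kb, and replicate 3 showed 3 of 8.78, 3.68 and 6.31 kb. The widest piece ranked 69, 84 and 84, the lowest ranks of the 3 genes apart from that of Swap70 in replicate 2. As at Swap70, the piece over the start had the highest fold enrichment in each library, 6.63, 5.93 and 6.20, against 5.38 in the other piece of replicate 1, 4.89 and 4.92 in replicate 2 and 4.20 and 4.84 in replicate 3.

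The 5 gaps of the Fas domain measured 721 to 2212 bp and gathered at a pair of places downstream of the start. At the place nearer the start all libraries had a gap, at chr19:34296703-34297423, chr19:34295505-34296265 and chr19:34295089-34297300 in replicates 1, 2 and 3, and the merged region was carried by replicate 1 alone over 761 bp and by replicate 2 alone over 598 bp. Further on, replicates 2 and 3 had gaps of 1142 and 1459 bp, the former inside the latter, which only replicate 1 bridged.

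**Figure D3:**
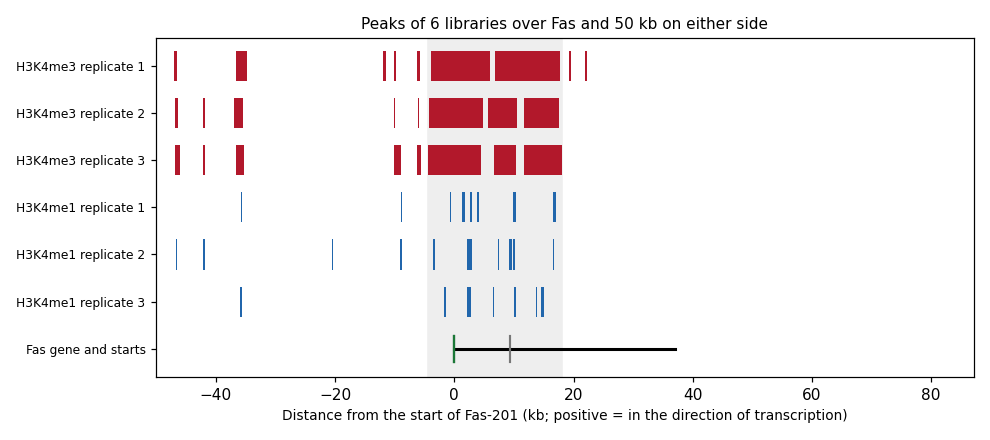
Peaks of each library over Fas and 50 kb on either side, by distance in kb from the start of the longest coding Fas transcript, drawn as in the map of Sema4d. The domain runs from 4.36 kb before to 18.1 kb after the start and holds 6 H3K4me1 peaks in each library, and little else in the window is marked.

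H3K4me1 covered nearly the same share of the Fas domain in each library. Each had 6 peaks there, covering 9.81%, 10.1% and 10.2% of it. Since the lists differed in length, the counts per 10000 peaks of a library were 2.49, 4.31 and 5.03 at Fas, a wider spread than the 4.56, 5.03 and 5.87 at Swap70. Of 13 joined regions, 1 was found in 2 libraries and 2 in all 3, and these were the only stretches in any of the 3 domains with bases common to all libraries. The stretch chr19:34293296-34293479 lay 2.72 kb downstream of the start, with fold enrichments of 6.87, 6.18 and 8.04 and summits of 9, 8 and 10 fragments. The stretch chr19:34300617-34300800 lay 10.04 kb downstream, with fold enrichments of 7.02, 5.998 and 5.12 and summits of 9, 7 and 6 fragments. No library had H3K4me1 at the start of the longest coding transcript, the nearest summits being 697, 2251 and 1541 bp away. The start of Fas-205, a transcript not annotated as coding, lay at 34300075, close to the second stretch. It was under an H3K4me1 peak in replicate 2 only, and its nearest summits were 544, 108 and 639 bp away. The sequence around the strongest summit of each Fas region is shown beside the best shared regions of Swap70 and Sema4d, 200 bases each, with matches to GAGGAA (a core of PU.1 sites), CAGGTG (an E-box of E proteins) or ATGCAAAT (the octamer read by OCT factors in B cells) on either strand in capitals.
Fas region near the start, chr19:34293303-34293502, plus strand: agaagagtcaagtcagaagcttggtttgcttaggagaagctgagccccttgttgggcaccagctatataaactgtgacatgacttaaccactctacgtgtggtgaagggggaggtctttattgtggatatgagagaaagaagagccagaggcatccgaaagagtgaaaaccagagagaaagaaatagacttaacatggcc
Fas region further on, chr19:34300519-34300718, plus strand: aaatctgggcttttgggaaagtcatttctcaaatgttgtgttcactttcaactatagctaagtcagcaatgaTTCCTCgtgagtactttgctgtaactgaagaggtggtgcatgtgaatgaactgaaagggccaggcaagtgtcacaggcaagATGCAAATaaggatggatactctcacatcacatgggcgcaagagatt
Swap70 region, chr7:110236010-110236209, plus strand: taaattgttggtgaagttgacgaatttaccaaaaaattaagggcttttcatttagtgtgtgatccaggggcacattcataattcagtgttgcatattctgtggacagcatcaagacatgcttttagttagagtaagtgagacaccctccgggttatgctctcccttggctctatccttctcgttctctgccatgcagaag
Sema4d region, chr13:51757298-51757497, plus strand: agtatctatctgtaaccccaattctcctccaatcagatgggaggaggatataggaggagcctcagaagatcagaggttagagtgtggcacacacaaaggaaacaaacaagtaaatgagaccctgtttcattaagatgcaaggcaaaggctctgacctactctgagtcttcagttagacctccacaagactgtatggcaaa
The further Fas region held 1 octamer and 1 GAGGAA, the latter on the minus strand, which do not overlap. The other 3 windows held none of these letters. Among 8439 windows of the same length around H3K4me1 regions found in at least 2 libraries, 23.4% held GAGGAA, 15.2% CAGGTG and 2.09% ATGCAAAT. A match is a description of the sequence, and binding was not measured.

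Across libraries the position of the 3 domains was steadier than their continuity. The share of domain bases under H3K4me3 in all 3 libraries was 84.2% at Sema4d (22.9 kb), 69.4% at Swap70 (18.02 kb) and 78.2% at Fas (17.6 kb). By this length the genes ranked 1, 2 and 4 among the merged regions with any such bases. The share seen in a single library only was 7.66%, 6.94% and 13.0%. Joining replicates 2 and 3 alone, without replicate 1, left widths of 11.53, 9.23 and 9.20 kb and ranks of 63, 156 and 161. Joining without replicate 2 left Sema4d at rank 1 and moved Swap70 to rank 37 and Fas to rank 98, and joining without replicate 3 left ranks of 1, 2 and 3.

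Every gap was longer than the distance over which the lists join neighbouring peaks, since the smallest spacing of neighbours was 697, 721 and 693 bp in replicates 1, 2 and 3. When gaps of up to 2 kb were closed within each library, which was chosen after the gaps were seen, the widest stretch over Sema4d was 27.3, 26.9 and 26.7 kb and that over Swap70 was 32.7, 24.8 and 25.7 kb. At Fas it was 25.9 and 23.6 kb in replicates 1 and 2 but 11.45 kb in replicate 3, whose gap of 2212 bp was not closed. Repeat-masked bases made up 41.5% of the gaps at Swap70 against 32.6% of its domain, 30.1% against 24.2% at Fas and 18.6% against 18.4% at Sema4d. The gaps were added over the libraries, so a base in the gaps of more than 1 library counted more than once. The part of repeats in the gaps was not tested.

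Just outside the choice stood the Fli1 region at 21.6 kb, which covers no coding TSS, against 22.4 kb at Fas. The next regions over a coding TSS were those of Tnfaip8 at 20.8 kb, B3gnt2 at 20.4 kb and Fam107b at 20.3 kb. Their widest single peaks were 11.6, 10.1 and 7.72 kb at Tnfaip8, 17.8, 9.34 and 20.3 kb at B3gnt2 and 20.3, 10.01 and 19.6 kb at Fam107b in replicates 1, 2 and 3. B3gnt2 and Fam107b thus each had wider single peaks in replicates 1 and 3 than Swap70 or Fas in any library.

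**Figure D4:**
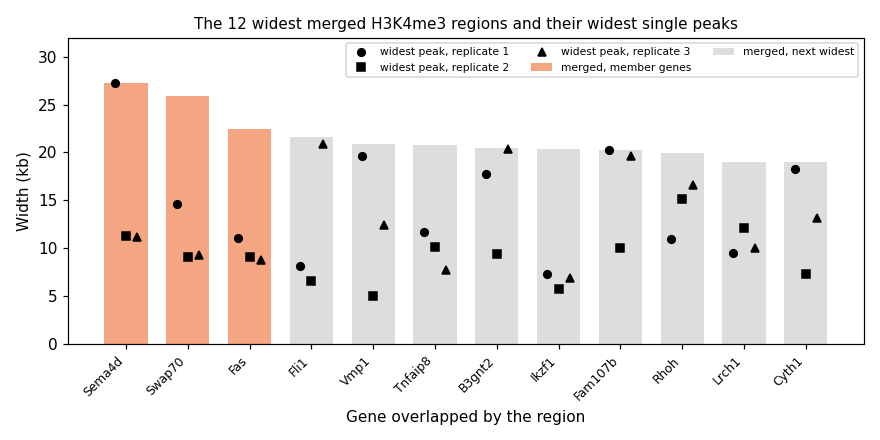
Widths in kb of the 12 widest merged H3K4me3 regions (bars) with the widest single peak of each replicate inside (points), by the gene the region overlaps. At Sema4d a single peak of replicate 1 equals the merged width, and at Swap70 and Fas every single peak is at most 14.6 kb.

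Whether H3K4me1 was denser inside the domains than around them was asked with an exact two-sided sign-flip permutation test over the 3 H3K4me1 libraries, whose smallest possible p is 0.25, so no result could pass 0.05. At Fas, H3K4me1 peaks covered 10.03% ± 0.199 (SD, n = 3) of the domain and 0.492% ± 0.291 of the rest of the window of 50 kb either side of the gene. At Swap70 the values were 13.0% ± 3.91 and 3.57% ± 1.31, and at Sema4d 6.76% ± 5.62 and 1.37% ± 0.655. The difference was 9.54 ± 0.317 percentage points at Fas, 9.48 ± 2.59 at Swap70 and 5.39 ± 4.98 at Sema4d. It was positive in 3 of 3 libraries at each gene (exact permutation p = 0.25 for each, 0.25 after Benjamini-Hochberg adjustment over the 3 genes). At Sema4d the difference rested on replicate 1, with 11.0 percentage points there against 1.51 and 3.66 in replicates 2 and 3, and without replicate 1 its mean was 2.59. With peaks of −log10 q of at least 5 only, the difference was 2.38 points at Fas, 4.32 at Swap70 and 0.0108 at Sema4d. At none of these genes was it then positive in all 3 libraries.

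The surroundings were not uniform. Where H3K4me3 was present outside the domain, H3K4me1 covered 9.02% ± 4.48 of bases at Sema4d, 9.43% ± 3.56 at Swap70 and 5.55% ± 2.47 at Fas (SD, n = 3). At Sema4d these shares were above those of the domain in each library. They were 13.9%, 5.09% and 8.07% in replicates 1, 2 and 3, against 13.1%, 2.47% and 4.68% of the domain. At Swap70 and Fas they were below those of the domain in each library. Where H3K4me3 was absent, H3K4me1 covered 0.383%, 0.689% and 0.202% at Sema4d, Swap70 and Fas. Of the H3K4me1 peaks outside the Sema4d domain, 9 of 12, 5 of 7 and 7 of 8 overlapped an H3K4me3 peak, and at Swap70 18 of 21, 11 of 11 and 11 of 12 did. Outside the Fas domain there were few H3K4me1 peaks, of which 1 of 2, 3 of 4 and 1 of 1 did. An H3K4me3 peak of any library counted here. The same share over all H3K4me1 peaks was not computed, so these counts do not set the windows apart from the rest of the genome.

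**Figure D5:**
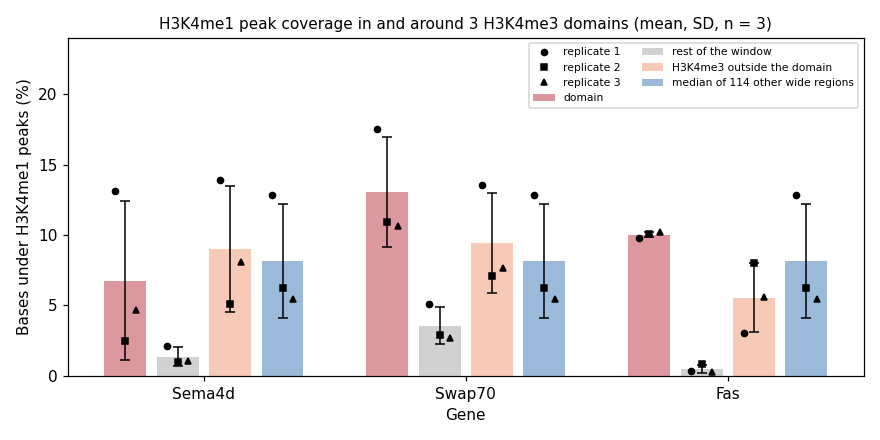
Percentage of bases under H3K4me1 peaks in each domain, in the rest of its window, in H3K4me3 outside the domain, and as the median of 114 other wide H3K4me3 regions. Bars are means over 3 libraries, error bars SD and points the libraries, and the Fas domain sits at 9.81% to 10.2% while its surroundings reach at most 0.828%.

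The domains were also set against the 114 other merged H3K4me3 regions of at least 10 kb that cover a coding TSS, of which 85.1% held an H3K4me1 peak in each of the 3 libraries, as did all 3 domains. The median of those regions was 12.8%, 6.23% and 5.49% covered by H3K4me1 in replicates 1, 2 and 3. Swap70 exceeded it in 3 of 3 libraries, by 4.86 ± 0.253 percentage points (SD, n = 3, exact permutation p = 0.25, adjusted p = 0.5). Fas exceeded it in 2 of 3, by 1.85 ± 4.24 points on average, and Sema4d in 1 of 3, with a mean difference of -1.42 ± 2.10 points (exact permutation p = 0.5 for each, adjusted p = 0.5). With 3 libraries the test could not separate any of the domains from other wide regions by H3K4me1. Leaving out H3K4me3 replicate 1, which narrows the domains, turned the Sema4d difference to 1.45 points and lowered that of Swap70 to 2.27. With the 10000 best peaks of each library the Swap70 difference was 1.02 points. In both cases the exact permutation p at Swap70 was 0.75, and the 3 libraries were no longer all of one sign.

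Over all joined H3K4me1 regions, 21.4% were found in at least 2 libraries and 4.69% in 3. In the domains the counts were 2 of 17 and 0 of 17 at Sema4d, 5 of 19 and 1 of 19 at Swap70, and 3 of 13 and 2 of 13 at Fas. Without H3K4me1 replicate 1 or without replicate 3, 0 regions were shared at Sema4d, and without replicate 1, 2 or 3 the regions shared at Swap70 numbered 3, 2 and 1. Most H3K4me1 regions inside the wide H3K4me3 domains were thus seen in a single library, as elsewhere, and their summits of 4 to 12 fragments show how few fragments a call rested on.

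Few other genes shared the windows, and their marks were counted within 500 bp of a start, not within 5 kb as for the gene lists. Around Sema4d, Cks2, which encodes a subunit of cyclin-dependent kinases, and Secisbp2, needed to make selenoproteins, had H3K4me3 at a start in 3 of 3 libraries and H3K4me1 in 0. The start of Acta2, the smooth muscle actin gene that runs away from Fas on the other strand, had H3K4me3 in 3 libraries, with peaks of 1.75, 1.46 and 1.38 kb and fold enrichments of 5.13, 7.22 and 6.11, and H3K4me1 in 2. The start of the antisense gene Gm45515 in Swap70 had each mark in 1 library, and Sbf2 reaches into the Swap70 window with 0 of its 14 starts. The small RNA gene Gm27818 lay inside the Fas domain and had H3K4me3 in 3 libraries and H3K4me1 in 1, and Gm23566, inside Sema4d but outside the domain, had the same counts. Peaks do not show strand, so marks cannot be assigned between overlapping genes.

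In the list of semaphorins and receptors, 6 of 10 genes had H3K4me3 within 5 kb of a TSS in 3 libraries and 2 of 10 had H3K4me1 in 3, against 56.1% and 6.17% of protein-coding genes, so the H3K4me3 share was near that of all genes. Sema4b had the widest merged H3K4me3 region of them over a TSS, 8.45 kb, followed by the receptor gene Plxnb2 at 5.63 kb and by Sema7a at 4.35 kb. Cd72, the receptor on B cells, had 3.77 kb, and the receptor gene Plxnb1 had the mark in 2 libraries.

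In the Fas pathway 9 of 10 genes had H3K4me3 in 3 libraries and 2 had H3K4me1, against the same 56.1% and 6.17% of protein-coding genes. The exception was Fasl, the ligand, with H3K4me3 and H3K4me1 in 0 of 3 libraries each. Downstream of the receptor, the adaptor Fadd had a merged region of 2.56 kb, the initiator caspase gene Casp8 3.85 kb and its inhibitor Cflar 5.90 kb. Among these Cflar had H3K4me1 in 3 libraries, Casp8 in 2 and Fadd in 0. The median over the list was 3.10 kb, against 2.32 kb for the semaphorin list and 8.74 kb for the GC B cell genes. Over all protein-coding genes it was 0.371 kb. Genes with no merged region over a TSS counted as 0 in these medians, and only 11025 of the 21864 protein-coding genes had one. The members of the lists were chosen for their function with earlier results known.

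Genes most like each member were sought by the bases under peaks within 15 kb of the main start in the 6 libraries, as the Euclidean distance of log2(bp + 500). For Swap70 they were Ikzf1, which encodes the lymphoid factor Ikaros (distance 0.296), and Gpr183, a chemotactic receptor gene of B cells (0.316). Swap70 had 15.6, 16.3 and 15.4 kb of H3K4me3 and 3.896, 1.83 and 1.53 kb of H3K4me1 there, and Ikzf1 had 15.5, 14.1 and 14.98 kb and 4.24, 1.92 and 1.29 kb. For Fas they were the cytokine gene Tnf (0.470) and Gimap4, a GTPase gene of lymphocytes (0.609), and Fas had 19.5, 17.8 and 17.4 kb of H3K4me3. For Sema4d the window lies on the upstream promoter and misses the domain, with 3.23, 4.51 and 3.97 kb of H3K4me3, and the nearest genes were Gm32742 (0.689) and Ppp2r5c, a phosphatase subunit gene (0.747).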

How the data were processed

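The study profiled H3K4me3 and H3K4me1 in wild-type mouse GC B cells by Mint-ChIP, with 3 libraries a mark. The submitters' processing notes name BWA, Picard, HOMER, Genrich and mm10, with no roles or versions. The peak caller's settings and control are not given in the sources used here. Peaks were called by the authors per library and deposited as broad lists for H3K4me3 and narrow lists for H3K4me1. The deposited fold enrichment is a linear ratio of signal to local background, with the authors' −log10 p-value and −log10 q-value beside it, and the deposited score, a rescaled q-value, was not used.

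Starts became 1-based. H3K4me3 peaks that touched or overlapped were merged over the libraries. H3K4me1 regions were joined likewise, and 1 shared bp counted as overlap. Windows were the gene and 50 kb on either side. Starts and exons came from GENCODE (mouse release 21) and RefSeq, and sequences from RefSeq start regions and the GRCm38.p6 genome. Summit fragments were found from the fold enrichment and p-value of narrow peaks as the Poisson count that gives both, within 0.002 on the −log10 scale, which worked for 99.99% to 100% of peaks. Read totals are not known, so no depth intervals are given. Tests were exact two-sided sign-flip permutation tests over 3 libraries, adjusted over the 3 genes, in Python 3.11.15 with numpy 2.4.6 and scipy 1.17.1, and the code was tested on simulated data. The alternatives were stricter peak thresholds, other merging distances and windows, a lower width limit for the other regions, bases in at least 2 libraries, and leaving out each library.

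The 3 genes, the gene lists and the tests were chosen with earlier results of these data known. Genes named are the 3 members, the next 3 genes by width with a covered coding TSS, the genes in the windows, up to 5 genes a list with the markers given by counts, and the 2 genes most like each member. Fli1, which the rule does not name, was chosen after its value was seen, as were the H3K4me1 regions shown as sequence. Some listed items are not reported here.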

Additional observations from a re-analysis of the deposited data

How the results depend on the processing

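Of 141 alternatives tried over these results, 31 moved a width, share or number of shared regions and 4 reversed a difference. The other 106 were classed as unchanged. Differences were judged by direction alone, so several of them changed in size. A share could also change in size and be classed as unchanged. That of Sema4d under H3K4me1 was 3.68% with the 10000 best peaks against 6.76% in the main result. No paired analysis was possible because no test compared the 2 marks, the groups that share replicate numbers. The sign-flip tests took their differences within each H3K4me1 library.

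The merged H3K4me3 widths depended on the threshold, on replicate 1 and, at Swap70 and Fas, also on replicate 2. With the 10000 best peaks of each library they were 7.98 kb at Sema4d, 9.23 kb at Swap70 and 10.4 kb at Fas. With −log10 q of at least 5 they were 14.6 kb at Swap70 and 11.0 kb at Fas. Merging peaks within 2 kb gave 32.8 kb at Swap70 and 25.9 kb at Fas. Bases in at least 2 libraries came to 19.5 kb at Fas. That is a total over separate pieces and not an unbroken width, since stretches inside the domain were covered by a single library. Leaving out each H3K4me3 library in turn gave 11.53 to 27.3 kb at Sema4d, 9.23 to 26.0 kb at Swap70 and 9.20 to 22.02 kb at Fas. Without replicate 2 the width was 14.6 kb at Swap70 and 11.45 kb at Fas.

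The share of each domain under H3K4me1 peaks moved likewise. With −log10 q of at least 5 it was 0.295% at Sema4d, 5.14% at Swap70 and 2.79% at Fas, and with the 10000 best peaks 6.39% at Swap70 and 8.56% at Fas. Merging within 1 kb gave 19.8% at Swap70 and 14.0% at Fas, and within 2 kb 15.6% at Sema4d, 27.3% at Swap70 and 16.7% at Fas. The H3K4me1 peaks were joined in these settings too, so bases between peaks counted as covered and the shares rose by construction. Bases in at least 2 libraries gave 11.2% at Fas, and leaving out an H3K4me3 library 9.46% to 11.9%.

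The excess of H3K4me1 inside over around had a positive mean at each gene in every alternative, but not always in each library. With −log10 q of at least 5 it was not positive in all 3 H3K4me1 libraries at any gene. The same held with the 10000 best peaks at Sema4d (exact permutation p = 0.5) and Swap70 (p = 0.75). It also held at Swap70 without H3K4me3 replicate 1 (exact permutation p = 0.5). The mean excess ranged from 0.0108 (−log10 q of at least 5) to 13.2 percentage points at Sema4d. It ranged from 3.12 (10000 best peaks) to 20.5 at Swap70 and from 2.38 (−log10 q of at least 5) to 16.2 at Fas. Each was highest with merging within 2 kb, where bases between joined H3K4me1 peaks counted as covered. The difference from other wide regions was 1.02 to 18.2 points at Swap70 and 0.420 to 7.58 at Fas. The Sema4d difference from other wide regions reversed to 0.868 points with merging within 1 kb, 6.47 within 2 kb, 0.993 against regions of at least 5 kb, and 1.45 without H3K4me3 replicate 1, the range over left-out libraries being -2.28 to 1.45 points. The cause was not tested. H3K4me1 regions shared by at least 2 libraries numbered 0 to 2 at Sema4d, 1 to 3 at Swap70 and 2 to 3 at Fas when an H3K4me1 library was left out, since fewer libraries allow fewer shared regions. Merging within 2 kb and leaving out H3K4me1 libraries for shared regions were added after the data were seen. With 3 libraries a mark and summits of few fragments, no test could pass 0.05.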

Other observations

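Identical peak edges were counted between all pairs of libraries. Of the shorter list's edges, 0.705% to 1.42% were identical in libraries of the same mark and 0.482% to 0.648% in libraries of different marks. In the windows of Sema4d, Swap70 and Fas together, 0 to 4 edges a pair were identical. The ends of the 3 H3K4me3 peaks at the upstream Sema4d promoter, at 51793315, 51793319 and 51793317, were close but not identical.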
